A study of Mus musculus with 6 samples.

Results

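The granulosa identity transcription factors described here are *Foxl2*, *Sox9*, *Wt1*, *Nr5a1*, *Nr5a2*, *Gata4*, *Gata6* and *Runx2*, taken by gene name from the deposited table. They are 8 of its 54532 genes, and all 8 passed the filter (a mean FPKM of 0.5 or more over the 6 samples) that left 14463 genes for testing. FPKM is the number of fragments per kilobase of gene after scaling for depth, so levels can be compared between genes. The samples were GCs (granulosa cells, the somatic cells around the oocyte) of 3-week-old female ICR mice that had been given 5 IU of PMSG, a gonadotropin that drives follicle growth. PBS or CTX (cyclophosphamide, an alkylating drug that damages DNA) at 120 mg/kg was injected 22 h after PMSG, and the cells were taken 6 h after that. There were 3 samples with PBS and 3 with CTX, each pooled from 3 mice. A value is therefore an average over pooled mice and over all cells in the preparation, in which fewer cells of a type and less RNA per cell cannot be told apart.

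FOXL2 is a forkhead factor that keeps GCs in the female state and opposes SOX9, the factor that sets up Sertoli cells in the testis. WT1 is a zinc-finger factor of the early gonad that is known from GCs of small follicles. NR5A1 and NR5A2 are related nuclear receptors of genes for steroid synthesis, GATA4 and GATA6 are zinc-finger factors that act beside them, and RUNX2 is a runt factor known from GCs close to ovulation.

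*Nr5a2* had the highest level of the 8, and RefSeq (GRCm38.p6) gives it a pair of start sites on the minus strand. The 250 bases before each start are printed 5′ to 3′ to show which letters of the other factors' motifs lie there. Capitals mark exact matches, on either strand, to a zinc-finger motif (AGATAA, bound by the family of *Gata4*) or a SOX motif.
*Nr5a2*, chr1:136960449-136960698: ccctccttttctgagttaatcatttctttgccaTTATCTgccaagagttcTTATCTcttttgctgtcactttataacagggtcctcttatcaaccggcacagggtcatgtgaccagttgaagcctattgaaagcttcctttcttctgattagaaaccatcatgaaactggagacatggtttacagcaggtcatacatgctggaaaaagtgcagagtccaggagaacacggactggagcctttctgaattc
*Nr5a2*, chr1:136953631-136953880: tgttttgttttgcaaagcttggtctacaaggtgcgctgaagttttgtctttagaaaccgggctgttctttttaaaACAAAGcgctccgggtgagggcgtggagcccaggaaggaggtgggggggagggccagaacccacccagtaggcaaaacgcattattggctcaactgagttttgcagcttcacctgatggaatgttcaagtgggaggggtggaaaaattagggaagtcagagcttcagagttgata
The first window held 2 matches to AGATAA, both on the strand opposite to the gene, at positions -217 to -212 and -200 to -195 from the start. The second held 1 SOX match (ACAAAG) at -175 to -170. Windows of 250 bases before and 50 bases after a start were matched for 3 of the 8 genes, *Foxl2*, *Nr5a2* and *Runx2*, and gave 4 windows. AGATAA was present in 11.2% of all 32851 windows in the RefSeq table. The SOX motif, searched as ACAATG and as ACAAAG, was present in 28.6% of them. The runt motif TGTGGT was present in 16.8% of all windows and, among the 4, in that of *Runx2*. The NR5A motif AAGGTCA and the forkhead motif GTAAACA were present in 4.72% and 3.65% of all windows and in 0 of the 4. A match is a string of letters, and binding was not measured.

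Between 16005869 and 18455011 reads on genes, rebuilt from FPKM, stood behind each sample. CTX replicate 2 stood apart, at 74.7 on the first principal component of the tested genes against -26.6 to 13.2 for the other 5 samples, so the main results that rest on it are also given without it. Of 7 targets of p53, the factor that DNA damage activates, all rose after CTX at an adjusted p below 0.05 in limma. *Cdkn1a*, a cell cycle inhibitor among them, was at 8.86 to 9.43 FPKM after PBS and at 66.4, 42.7 and 66.8 FPKM in CTX replicates 1, 2 and 3. The GC label was checked with 12 markers, all of them tested. *Inha* (inhibin alpha), the highest, was at 9205 to 10402 FPKM after PBS and 8556 to 9180 FPKM after CTX. In limma 0 of the 12 were called at more than 2-fold with an adjusted p below 0.05, against 0.961% of all tested genes. An unadjusted p below 0.05 in limma was seen for 3, against 19.6% of all tested genes. The log2 fold change was below 0 for 10 of the 12, against 51.4% of tested genes. All CTX samples lay below all PBS samples for 8 and above them for 1. The groups did not overlap for 29.2% of tested genes. The median log2 fold change of the markers was -0.22, against -0.01 over all tested genes. Without CTX replicate 2 it was -0.24, and 2 of the 12 (*Inhbb* and *Kctd14*) had an adjusted p below 0.05. So did 526 of all 14463 tested genes.

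In PBS-treated GCs the order of the 8 levels was the same in all 3 samples, and no neighbours in it overlapped. *Nr5a2* was highest, at 231 ± 10.8 FPKM (mean ± SD, n = 3), above 98.9% of tested genes. *Foxl2* followed at 188 ± 4.88, *Gata4* at 105 ± 2.02, *Nr5a1* at 77.2 ± 2.97 and *Gata6* at 40.3 ± 0.860 FPKM, and *Gata6* was still above 91.0% of tested genes. The other members were lower, with *Runx2* at 9.15 ± 1.17, *Wt1* at 2.99 ± 0.0993 and *Sox9* at 0.905 ± 0.109 FPKM. In CTX-treated GCs 5 of the 7 neighbouring pairs overlapped, and those that did not were *Nr5a2* over *Foxl2* and *Gata6* over *Wt1*. In CTX replicate 2, *Gata6* stood above *Nr5a1*, and *Wt1* stood above *Runx2*.

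**Figure D1:**
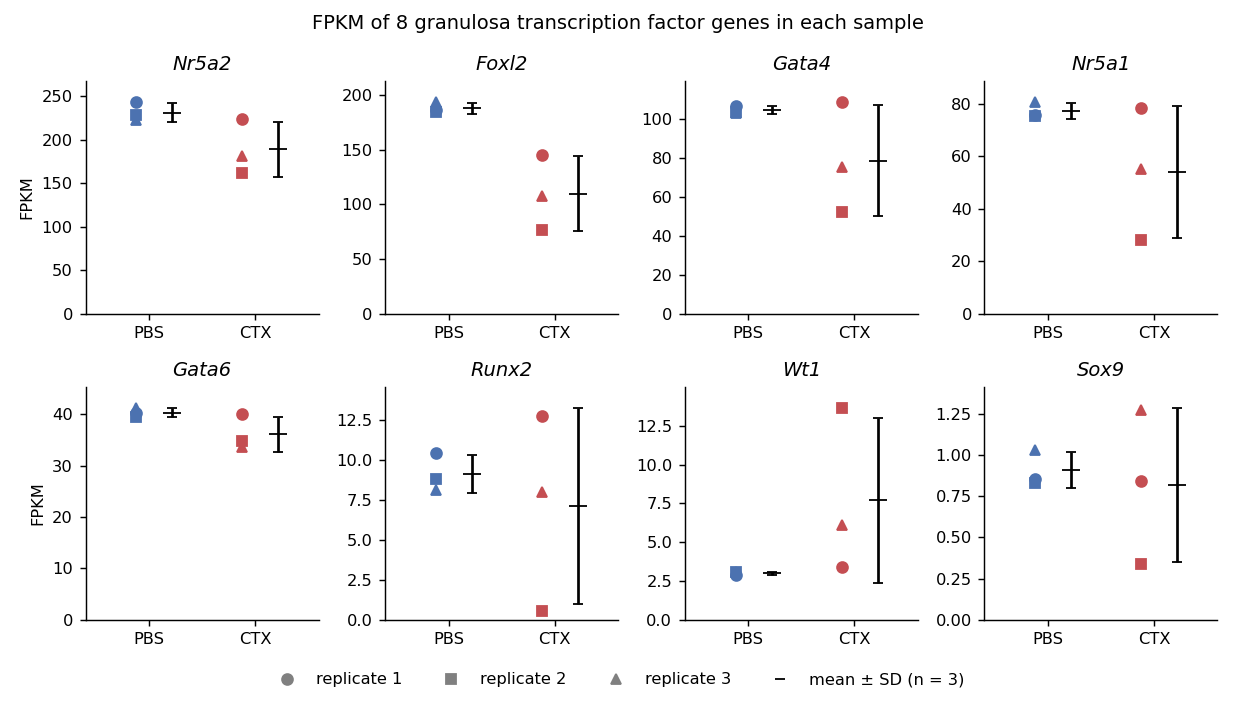
FPKM of the 8 genes (y axis, linear from 0, with its own scale for each gene) in the 3 PBS and 3 CTX samples (x axis); symbols mark the replicate and black bars the mean ± SD (n = 3). For each gene the PBS points lie closer together than the CTX points, which run from 0.574 to 12.8 FPKM for *Runx2* and from 3.39 to 13.6 FPKM for *Wt1*.

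CTX was compared with PBS to ask whether these factors differed at 6 h. In limma, 0 of the 8 were called at more than 2-fold with an adjusted p below 0.05, against 0.961% of all tested genes. At an adjusted p below 0.05 alone, 0 of the 8 were called, against 1.76%. At an unadjusted p below 0.05 the count was 1 (*Foxl2*), against 19.6%. With voom, limma's model for counts, on rebuilt reads, 0 of the 8 were called by either adjusted rule. The groups did not overlap for *Foxl2* and *Wt1*, 2 of the 8, near the 29.2% of tested genes for which that held. CTX minus PBS was below 0 on the log2 scale for 7 of the 8 and for 51.4% of tested genes, and its median was -0.39 over the 8 and -0.01 over all tested genes. With CTX replicate 2 left out it was below 0 for 5 of the 8 and for 51.1% of tested genes, and the median over the 8 was -0.17.

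*Foxl2* (chromosome 9, 98955288 to 98958543, GRCm38, 1 exon) was at 186, 184 and 193 FPKM in PBS replicates 1, 2 and 3 and at 145, 76.9 and 107 FPKM in CTX replicates 1, 2 and 3. All CTX samples lay below all PBS samples, at 77.3%, 40.9% and 57.1% of the PBS mean. The mean was 188 ± 4.88 FPKM after PBS and 110 ± 34.2 FPKM after CTX (SD, n = 3). The log2 fold change was -0.82 (SE 0.22, 95% interval -1.35 to -0.30, limma adjusted p = 0.137). Without CTX replicate 1 it was -1.05, and the limma adjusted p of 0.035 passed the threshold. Without CTX replicate 2 it was -0.59, with a limma adjusted p of 0.076.

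*Foxl2os*, a non-coding gene on the opposite strand, shares 12 exon bases with *Foxl2*. It was at 130, 151 and 121 FPKM after PBS and at 72.8, 43.8 and 69.7 FPKM after CTX, again with all CTX samples below all PBS samples. Its log2 fold change was -1.14 (SE 0.21, limma adjusted p = 0.059), and with voom on rebuilt reads the adjusted p was 0.045, past the threshold. Without CTX replicate 2 it was -0.91, with a limma adjusted p of 0.011, also past the threshold. The strand setting of the counting is not given in the sources used here, and reads on shared bases of opposite genes could not be told apart.

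*Sox9* (chromosome 11, 112782224 to 112787760), the opponent of *Foxl2*, was at 0.855, 0.831 and 1.03 FPKM after PBS and at 0.841, 0.341 and 1.27 FPKM in CTX replicates 1, 2 and 3. The groups overlapped, with CTX replicate 2 lowest and CTX replicate 3 highest of the 6 samples. CTX replicate 2 rested on 25 reads (exact Poisson 95% interval 16.2 to 36.9, counting error only), and the other samples on 63 to 94. CTX minus PBS on the log2 scale was -0.27 (SE 0.43, 95% interval -1.32 to 0.77, limma adjusted p = 0.739), and it was 0.18 without CTX replicate 2. Within a sample, *Foxl2* exceeded *Sox9* by 188-fold to 222-fold after PBS and by 173-fold, 226-fold and 84.5-fold in CTX replicates 1, 2 and 3.

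Of 14 Sertoli-type genes, with *Sox9* among them, 8 were tested and 0 were called, against 0.961% of all tested genes. *Dmrt1*, a testis factor, was listed at 0 in all 6 samples, where 3 reads on 1 kb of gene would give 0.164 to 0.185 FPKM. The tested genes of this list with the highest levels were *Dhh*, a hedgehog ligand, *Nr0b1*, a corepressor of NR5A1, *Ptgds*, a prostaglandin synthase, and *Aard*. *Nr0b1* is also in the lists of partners and targets below. A place among the Sertoli-type genes does not make a gene particular to Sertoli cells. *Dhh* was at 10.7 to 11.7 FPKM after PBS and 9.99 to 10.8 FPKM after CTX. *Nr0b1* was at 3.20 to 3.82 FPKM after PBS and at 3.60, 11.5 and 4.97 FPKM in CTX replicates 1, 2 and 3. *Ptgds* was at 3.70 to 3.97 FPKM after PBS and at 7.50, 1.03 and 3.86 FPKM after CTX. CTX replicate 2 was thus the highest CTX sample for *Nr0b1* and the lowest for *Ptgds*. *Aard* was at 2.79 to 3.85 FPKM after PBS and 3.36 to 5.39 FPKM after CTX.

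Of 10 genes of the female pathway, 9 were tested and 0 were called, against 0.961% of all tested genes. *Fst* (follistatin) was at 281 to 303 FPKM after PBS and 264 to 303 FPKM after CTX. *Irx3*, a homeobox factor, was at 19.3 to 21.9 FPKM after PBS and 17.2 to 27.7 FPKM after CTX. *Bmp2*, a secreted growth factor, was at 5.60 to 6.49 FPKM after PBS and at 8.88, 25.7 and 8.40 FPKM after CTX, with all CTX samples above all PBS samples and a log2 fold change of 1.03 (SE 0.42, limma adjusted p = 0.25). Without CTX replicate 2 that of *Bmp2* was 0.51 and passed the threshold on adjusted p alone (SE 0.09, limma adjusted p = 0.040).

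*Wt1* (chromosome 2, 105126529 to 105173616) was the one member with a higher mean after CTX. It was at 2.88, 3.06 and 3.05 FPKM after PBS and at 3.39, 13.6 and 6.09 FPKM in CTX replicates 1, 2 and 3. CTX replicate 1 lay just above the PBS samples, and CTX replicates 2 and 3 were at 455% and 203% of the PBS mean. CTX minus PBS on the log2 scale was 1.11 (SE 0.46, 95% interval -0.00 to 2.22, limma adjusted p = 0.255), and it was 0.59 without CTX replicate 2. The rebuilt reads numbered 306 to 347 after PBS and 381, 1497 and 676 after CTX. *Wt1os*, listed as an opposite-strand neighbour of *Wt1*, was at 0.177 to 0.496 FPKM after PBS and at 0.343, 1.47 and 0.614 FPKM after CTX (limma adjusted p = 0.366).

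**Figure D2:**
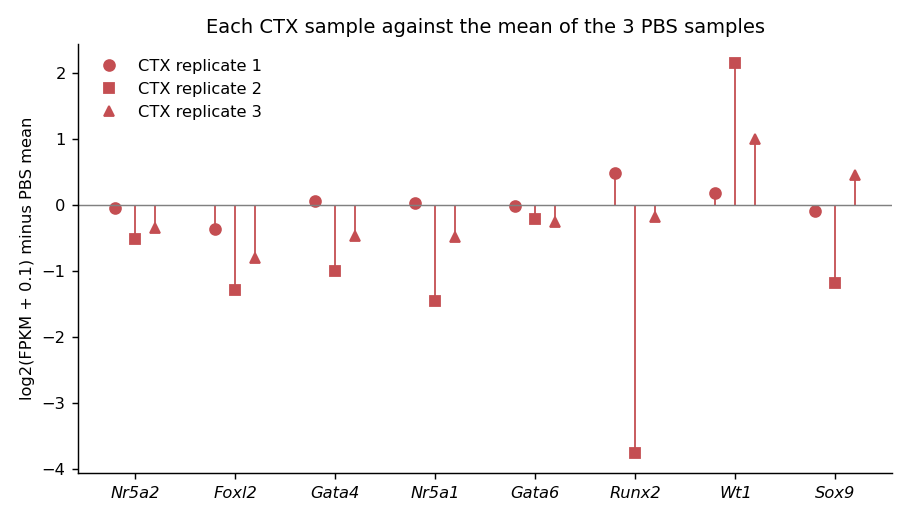
Difference of log2(FPKM + 0.1) between each CTX sample and the mean of the 3 PBS samples (y axis) for each of the 8 genes (x axis), with a symbol for each CTX replicate. CTX replicate 2 (squares) lies furthest from 0 for 7 of the 8 genes, from -3.77 for *Runx2* to 2.15 for *Wt1*.

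*Nr5a2* (chromosome 1, 136842571 to 136960448), whose upstream bases are printed above, was at 243, 229 and 223 FPKM after PBS and at 224, 162 and 181 FPKM after CTX. CTX replicate 1 lay among the PBS samples, and the other CTX samples lay below them. The log2 fold change was -0.30 (SE 0.13, 95% interval -0.62 to 0.01, limma adjusted p = 0.262), and it was -0.20 without CTX replicate 2. *Nr5a1* (chromosome 2, 38692656 to 38714542) was at 75.6, 75.4 and 80.6 FPKM after PBS and at 78.4, 28.1 and 55.0 FPKM after CTX. CTX replicate 1 again lay among the PBS samples, and CTX replicate 2 was at 36.4% of the PBS mean. CTX minus PBS on the log2 scale was -0.64 (SE 0.35, 95% interval -1.48 to 0.20, limma adjusted p = 0.348), and it was -0.23 without CTX replicate 2. Within a sample, *Nr5a2* exceeded *Nr5a1* by 2.76-fold to 3.22-fold after PBS and by 2.86-fold, 5.76-fold and 3.29-fold in CTX replicates 1, 2 and 3. The log2 ratio was 1.58 ± 0.11 after PBS and 1.92 ± 0.53 after CTX (SD, n = 3, two-sided exact permutation test, p = 0.40, adjusted p = 0.50 over 5 ratios).

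*Gata4* (chromosome 14, 63198922 to 63271692) was at 107, 104 and 103 FPKM after PBS and at 109, 52.3 and 75.3 FPKM after CTX. CTX replicate 1 was the highest of the 6 samples and CTX replicate 2 the lowest, at 49.9% of the PBS mean. Its log2 fold change was -0.47 (SE 0.25, 95% interval -1.07 to 0.13, limma adjusted p = 0.334), and it was -0.21 without CTX replicate 2. *Gata6* (chromosome 18, 11052508 to 11085635) was at 40.3, 39.4 and 41.1 FPKM after PBS and at 40.0, 34.9 and 33.6 FPKM after CTX. It had the narrowest CTX spread of the 8, with a highest sample 1.19-fold above the lowest. CTX minus PBS on the log2 scale was -0.16 (SE 0.08, 95% interval -0.36 to 0.04, limma adjusted p = 0.323). The ratio of *Gata4* to *Gata6* was 2.51 to 2.66 after PBS and 2.72, 1.499 and 2.24 in CTX replicates 1, 2 and 3 (two-sided exact permutation test, p = 0.40, adjusted p = 0.50 over 5 ratios).

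*Runx2* (chromosome 17, 44495987 to 44814797) had the widest CTX spread of the 8. It was at 10.4, 8.86 and 8.15 FPKM after PBS and at 12.8, 0.574 and 7.997 FPKM in CTX replicates 1, 2 and 3. CTX replicate 1 was the highest of the 6 samples, whereas CTX replicate 2 was 15.9-fold below the PBS mean. That sample held 90 reads of *Runx2* (exact Poisson 95% interval 72.4 to 111, counting error only), and the other 5 samples held 1166 to 2045. CTX minus PBS on the log2 scale was -1.16 (SE 1.05, 95% interval -3.70 to 1.39, limma adjusted p = 0.554) and turned to 0.15 without CTX replicate 2. The SD of log2(FPKM + 0.1) was 2.29 over the CTX samples, above that of 99.1% of tested genes, and 0.18 over the PBS samples. *Runx2os1*, an opposite-strand gene that shares 519 exon bases with *Runx2*, had at most 10 reads in any sample.

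*Runx1*, the related runt factor, was at 4.66 to 5.33 FPKM after PBS and at 5.26, 3.46 and 3.44 FPKM after CTX (limma adjusted p = 0.332). The ratio of *Runx2* to *Runx1* was 1.66 to 1.99 after PBS and 2.43, 0.166 and 2.32 in CTX replicates 1, 2 and 3 (two-sided exact permutation test, p = 1.00). Among the profiles most like that of *Runx2* over the 6 samples were those of *Gsg1l* and *Fam129a*. Likeness was the root mean square difference of log2(FPKM + 0.1) values centred on each gene's mean, and it was 0.10 for *Gsg1l* and 0.11 for *Fam129a*. Both genes were picked by their likeness over these same 6 samples, so a low value in CTX replicate 2 follows from the picking. In CTX replicate 2 *Gsg1l* was at 0.805 FPKM and *Fam129a* at 0.428 FPKM. In the other 5 samples *Gsg1l* was at 11.8 to 19.3 FPKM and *Fam129a* at 6.84 to 12.0 FPKM.

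**Figure D3:**
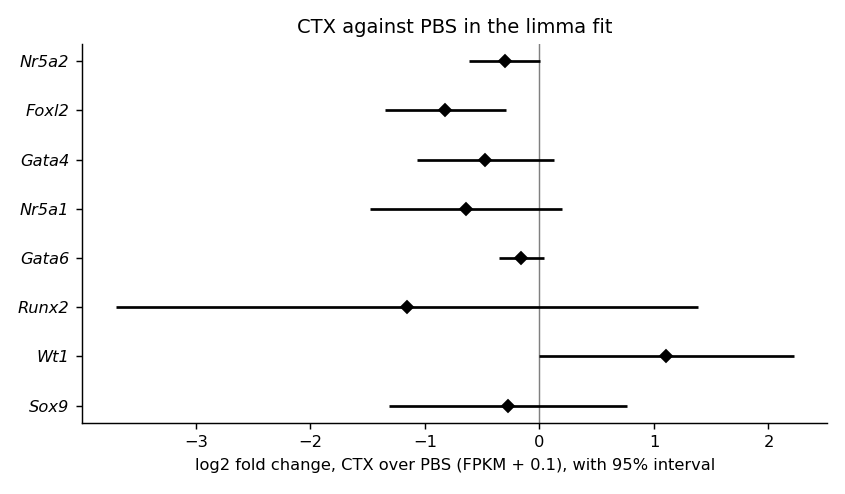
log2 fold change of CTX over PBS (x axis, on the FPKM + 0.1 scale) for each of the 8 genes (y axis), with the 95% interval of the limma fit as a line. The unadjusted interval of *Foxl2* (-1.35 to -0.30) lies wholly below 0, and that of *Runx2* (-3.70 to 1.39) is the widest.

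Ratios within a sample do not depend on the scaling between samples, and 5 were compared. *Foxl2* exceeded *Wt1* by 64.6-fold, 60.3-fold and 63.4-fold in the PBS samples and by 42.8-fold, 5.65-fold and 17.6-fold in CTX replicates 1, 2 and 3. All CTX values lay below all PBS values. The log2 ratio was 5.97 ± 0.05 after PBS and 4.02 ± 1.46 after CTX (SD, n = 3, two-sided exact permutation test, p = 0.10, adjusted p = 0.50 over 5 ratios), and 0.10 is the smallest p that 3 samples against 3 allow. The difference was -1.95, and it was -1.19 without CTX replicate 2.

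**Figure D4:**
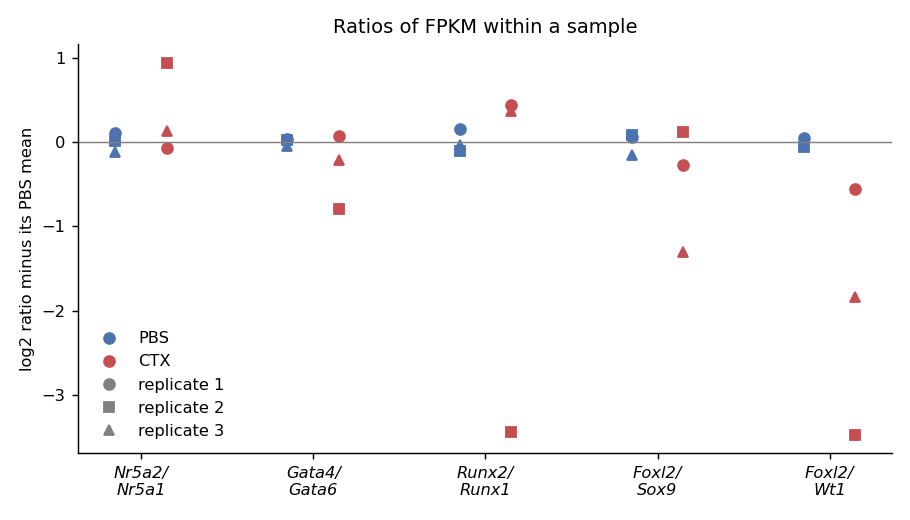
log2 ratio of the FPKM of gene pairs within a sample, minus the mean of that ratio in the 3 PBS samples (y axis), for the 5 ratios (x axis); colour marks the group and the symbol the replicate. For *Foxl2*/*Wt1* the 3 CTX points lie below the PBS points, and for *Runx2*/*Runx1* CTX replicate 2 lies apart from the other 5 samples.

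Sample by sample, CTX replicate 1 lay within the PBS range for 4 of the 8 genes, and CTX replicates 2 and 3 for 0 of the 8. CTX replicate 2 was the lowest CTX sample for 6 of the genes and the highest for *Wt1*. It differed from the mean of the other CTX samples by more than 1 on the log2 scale for 4 of the 8, at -3.92 for *Runx2*, -1.36 for *Sox9*, -1.22 for *Nr5a1* and 1.56 for *Wt1*. That held for 9.98% of tested genes. Over the PBS samples the highest value of a member was 1.04-fold to 1.28-fold the lowest.

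Of 21 genes that these factors are known to act on in GCs, 20 were tested. Of the 20, 0 were called, against 0.961% of all tested genes. CTX minus PBS on the log2 scale had a median of -0.58, against -0.01 over all tested genes, and without CTX replicate 2 the median of the targets was -0.14. All CTX samples lay below all PBS samples for 8 of the 20 and above them for 2, and the groups did not overlap for 29.2% of all tested genes. With that sample left out these counts were 8 and 3, against 38.6% of tested genes. Of the targets, *Fshr*, *Cyp19a1*, *Inha*, *Inhba*, *Inhbb*, *Amh*, *Amhr2*, *Hsd17b1* and *Fst* were also among the GC markers above. *Lhcgr* and *Cyp17a1* were also counted as theca and stroma markers. The counts of these lists are therefore not independent. The highest levels among the targets were those of *Inha*, *Hsd3b1*, *Inhbb* and *Hsd17b1*. *Hsd3b1*, an enzyme of progesterone synthesis, was at 2651 to 3005 FPKM after PBS and at 3005, 607 and 1970 FPKM in CTX replicates 1, 2 and 3. *Inhbb*, a subunit of activin and inhibin, was at 1583 to 1658 FPKM after PBS and at 1069, 530 and 895 FPKM after CTX (log2 fold change -1.03, SE 0.26, limma adjusted p = 0.124), and without CTX replicate 2 its log2 fold change was -0.73 and passed the threshold on adjusted p alone (limma adjusted p = 0.033). *Hsd17b1*, an enzyme of oestradiol synthesis, was at 731 to 819 FPKM after PBS and 614 to 714 FPKM after CTX. CTX replicate 2 was the lowest CTX sample for *Hsd3b1*, *Inhbb* and *Hsd17b1*.

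The next targets were named after their values had been seen. *Lhcgr*, the LH receptor, was at 108 to 113 FPKM after PBS and at 129, 1.48 and 53.1 FPKM in CTX replicates 1, 2 and 3. *Cyp11a1*, which makes pregnenolone from cholesterol, was at 544 to 564 FPKM after PBS and at 727, 14.4 and 486 FPKM after CTX. *Amh*, a product of GCs of small follicles, was at 48.4 to 51.1 FPKM after PBS and at 54.3, 179 and 85.5 FPKM after CTX. CTX replicate 2 was the lowest of the 6 samples for *Lhcgr* and *Cyp11a1*, as it was for *Runx2*, and the highest for *Amh*, as it was for *Wt1*. For *Lhcgr*, *Cyp11a1* and *Amh* the log2 fold change was -2.33, -1.68 and 0.93 (SE 1.54, 1.43 and 0.40, limma adjusted p = 0.424, 0.526 and 0.269). Without CTX replicate 2 it was -0.43, 0.10 and 0.46.

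**Figure D5:**
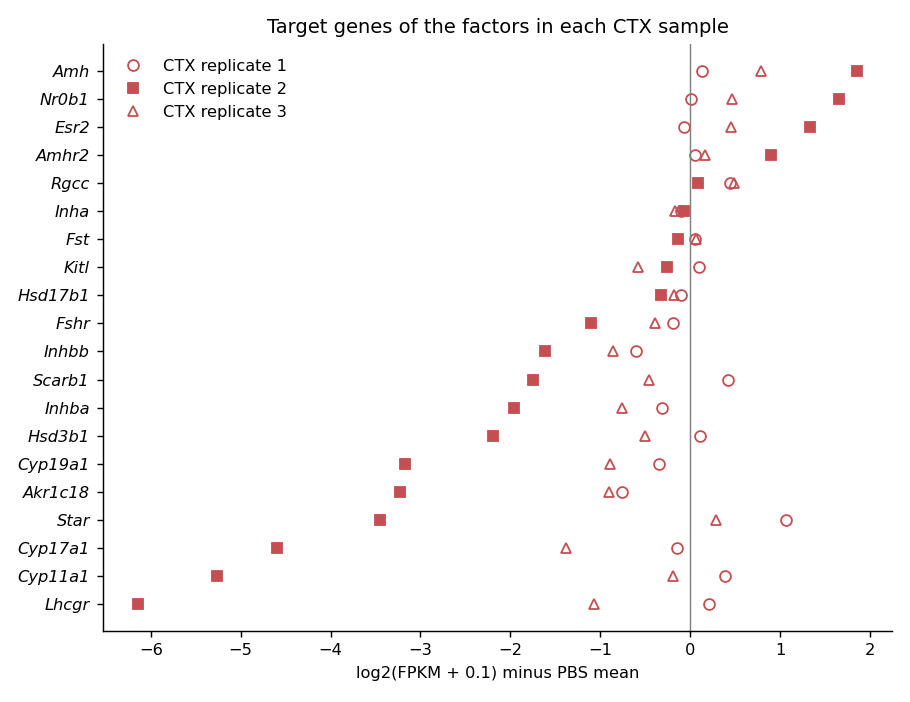
Difference of log2(FPKM + 0.1) between each CTX sample and the mean of the 3 PBS samples (x axis) for the 20 tested target genes (y axis, ordered by CTX replicate 2); filled squares are CTX replicate 2, and open circles and triangles are CTX replicates 1 and 3. In CTX replicate 2, *Lhcgr* is at -6.14 and *Amh* at 1.85, whereas *Fst* is at -0.14.

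Of 20 partners and corepressors of the 8 factors, all were tested and 0 were called, with a median log2 fold change of 0.10. *Cited2*, a coactivator, was at 232 to 252 FPKM after PBS and at 291, 143 and 234 FPKM after CTX. *Ctnnb1* (beta-catenin) was at 122 to 131 FPKM after PBS and 110 to 137 FPKM after CTX. *Foxo1*, a forkhead factor, was at 80.0 to 87.1 FPKM after PBS and at 84.0, 132 and 82.3 FPKM after CTX. For *Cited2* and *Foxo1* it was CTX replicate 2 that stood apart, in opposite directions. *Esr2*, the oestrogen receptor of GCs, was at 52.8 to 54.8 FPKM after PBS and at 51.5, 136 and 74.4 FPKM after CTX. *Zfpm2*, a cofactor that binds GATA4, was at 1.88 to 2.03 FPKM after PBS and at 3.07, 7.20 and 3.54 FPKM after CTX (log2 fold change 1.09, SE 0.31, limma adjusted p = 0.151), and it was named after its values had been seen. Without CTX replicate 2 the log2 fold change of *Zfpm2* was 0.72 and passed the threshold on adjusted p alone (limma adjusted p = 0.034).

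Of 9 paralogs of the members in the table, 2 were tested, *Runx1* and *Sox8*, and neither was called, against 0.961% of all tested genes. *Sox8*, a relative of *Sox9*, was at 2.24 to 2.47 FPKM after PBS and 1.07 to 1.77 FPKM after CTX, without overlap (limma adjusted p = 0.159). Of 10 early gonad factors 6 were tested and 0 were called, against the same share. *Cbx2*, a polycomb protein, was at 10.5 to 10.8 FPKM after PBS and 9.18 to 10.5 FPKM after CTX. At an unadjusted p below 0.05 in limma the counts were 7 of the 20 partners, 1 of the 2 paralogs, 0 of the 6 early gonad factors, 4 of the 9 female pathway genes, 1 of the 8 Sertoli-type genes and 5 of the 20 targets, against 19.6% of all tested genes, and voom called 0 genes of these lists. At an adjusted p below 0.05 and without CTX replicate 2, limma called 1 partner (*Zfpm2*), 1 female pathway gene (*Bmp2*) and 2 targets (*Inhbb* and *Rgcc*, a cell cycle regulator), where 526 of all tested genes were called. *Insr*, the insulin receptor, was at 7.81 to 9.55 FPKM after PBS and 7.06 to 8.18 FPKM after CTX.

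Markers of other cells also varied between these samples. The 11 theca and stroma markers summed to 173 to 176 FPKM after PBS and to 214, 37.0 and 116 FPKM in CTX replicates 1, 2 and 3. *Lhcgr*, which GCs also express, is one of them and made up 108 to 113 FPKM of the PBS sums. In CTX replicate 2 it made up 1.48 FPKM. On the log2 scale that sample lay below the mean of the other CTX samples for 7 of the 10 tested markers and above it for 3. Of this list, *Acta2* (smooth muscle actin) rose, from 8.06 ± 0.48 to 17.3 ± 2.93 FPKM (SD, n = 3), with a log2 fold change of 1.08 (SE 0.13, limma adjusted p = 0.017). With CTX replicate 2 left out, CTX minus PBS over the 10 tested markers of this list went from a median of 0.35 to 0.81 on the log2 scale. Over all tested genes the median without that sample was -0.01. *Acta2*, *Lum* and *Col1a2* then had an adjusted p below 0.05 in limma, as did 526 of all 14463 tested genes. The 9 leukocyte markers summed to 22.9 to 25.8 FPKM after PBS and to 39.0, 72.05 and 27.2 FPKM after CTX. In CTX replicate 2 *Lyz2* made up 45.8 FPKM of the sum. The log2 fold change was above 0 for 6 of the 7 tested leukocyte markers. Its median was 0.77, and 0.42 without CTX replicate 2. That sample lay above the mean of the other CTX samples for all 7. *Ptprc*, the common leukocyte antigen, was at 0.0640 to 0.0983 FPKM in all 6 samples and was too low to be tested. The 11 oocyte markers summed to 40.7 to 87.3 FPKM after PBS and 57.5 to 101 FPKM after CTX. The 7 endothelial markers summed to 4.88 to 5.64 and 1.99 to 4.43 FPKM, and the 5 erythrocyte markers to 319 to 454 and 138 to 497 FPKM. *Cdh5*, the 1 endothelial marker tested, made up 3.66 to 4.49 and 1.25 to 3.11 FPKM of these sums. All its CTX samples lay below all PBS samples (log2 fold change -0.82, SE 0.34, limma adjusted p = 0.256). *Hba-a1* made up 200 to 291 and 79.8 to 298 FPKM of the erythrocyte sums. None of the leukocyte, oocyte, endothelial and erythrocyte markers tested was called in limma or by voom, where limma called 0.961% of all tested genes. An unadjusted p below 0.05 in limma was seen for 1 of the 7 leukocyte markers tested, against 19.6% of all tested genes. The part of these cells in the levels of the 8 factors was not tested.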

How the data were processed

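RNA-seq of mouse GCs comprised 3 PBS and 3 CTX samples, grouped by their labels, which give no batch. The authors deposited FPKM values with a scaling between samples already in them. Per the labels' processing notes CASAVA 1.8, fastp, HISAT2 2.0.5, featureCounts 1.5.0-p3, DESeq2 1.20.0 and mm10 were used; their settings are not given in the sources used here. Columns with the authors' own group means, fold changes and p-values were not used. Reads were rebuilt from FPKM and gene length and came out whole (within 0.01 reads) for 100% of values.

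Genes were compared as log2(FPKM + 0.1), a scale on which low genes change less, with limma 3.58.1 (lmFit, eBayes with trend) in R 4.3.3 and Benjamini-Hochberg adjustment over all 14463 genes tested. The script was checked on simulated data. Ratios were compared by exact permutation in SciPy 1.17.1. Coordinates of 7 of the 8 members equal those of GENCODE M21 (GRCm38); that of *Gata6* differs.

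Alternatives were pseudocounts of 1 and 0.01, a filter at 5 FPKM or none, quantile normalization, scaling to library totals, arrayWeights, a replicate block, eBayes without trend, voom on rebuilt reads, and leaving out each sample. Leaving CTX replicate 2 out of the list counts was chosen after seeing the data. Members and lists were chosen with earlier results of these data known. Besides the members and *Runx1*, the genes named are list genes past the threshold, the 2 to 4 genes of a list with the highest mean FPKM, and the 3 genes most like the member with the largest log2 fold change, of which 1 is not reported here; any others are said to be named after their values were seen, except marker, check and opposite-strand genes.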

Additional observations from a re-analysis of the deposited data

How the results depend on the processing

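At an adjusted p below 0.05 and 2-fold, 139 genes were called, or 657 with arrayWeights. At an adjusted p alone there were 254 genes and 0 members, or 5753 genes and 6 members with arrayWeights (*Foxl2*, *Gata4*, *Gata6*, *Nr5a1*, *Nr5a2* and *Wt1*), whose weights ran from 0.16 (CTX replicate 2) to 16.6 (CTX replicate 3). Leaving out 1 sample gave 58 (without PBS replicate 3) to 205 genes at 2-fold, 70 (without PBS replicate 3) to 526 (without CTX replicate 2) at an adjusted p alone, and 0 to 1 members by either rule, the 1 being *Foxl2* without CTX replicate 1. Leaving out 1 sample moved the log2 fold change of *Runx2* from -1.98 to 0.15 and that of *Sox9* from -0.64 to 0.18, both highest without CTX replicate 2, and with arrayWeights that of *Sox9* was 0.46. It moved the difference of the log2 ratio *Runx2*/*Runx1* from -1.53 to 0.40, *Foxl2*/*Sox9* from -0.79 to -0.08, *Gata4*/*Gata6* from -0.50 to -0.07 and *Nr5a2*/*Nr5a1* from 0.03 to 0.54. The causes were not tested. The other 6 members kept the sign of their log2 fold change in all 16 alternatives.

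With the replicate block 50 genes were called at 2-fold, 53 at an adjusted p alone, and 0 members. No mouse is shared by samples of the same number. Their deviations from the group means correlated at 0.056, 0.024 and 0.0058, against a mean of -0.0142 for samples of different numbers. With deviations centred within groups of 3, these values cannot show whether samples of the same number shared a day or batch. *Sox9* was not tested at 5 FPKM. Ratios of 3 samples against 3 cannot pass below an exact p of 0.10, and of 2 against 3 below 0.20.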

Other observations

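The genes most like the other members were looked up after their values had been seen, by the same root mean square difference over the 6 samples. A likeness to the member in the order of the samples therefore follows from how these genes were picked. For *Wt1* the nearest was *Heyl*, a Notch target, with a difference of 0.07. *Heyl* was at 14.7 to 16.7 FPKM after PBS and at 17.5, 77.7 and 32.4 FPKM in CTX replicates 1, 2 and 3, so that CTX replicate 2 was highest for both genes. For *Foxl2* the nearest was *Eno1*, a glycolytic enzyme, with a difference of 0.03, at 149 to 160 FPKM after PBS and at 113, 61.6 and 86.9 FPKM after CTX. *Eno1b*, a near copy of *Eno1*, was also among the nearest 3, and the division of reads between these genes is uncertain. For *Nr5a1* the nearest was *Agpat2*, an enzyme of lipid synthesis, with a difference of 0.03, at 18.5 to 19.4 FPKM after PBS and at 19.2, 7.14 and 13.5 FPKM after CTX. For *Eno1* and *Agpat2*, as for *Foxl2* and *Nr5a1*, CTX replicate 1 was the highest CTX sample and CTX replicate 2 the lowest.

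*1010001N08Rik*, a non-coding gene on the strand opposite to *Gata6* that shares 93 exon bases with it in GENCODE M21, was at 11.4 to 12.3 FPKM after PBS and at 7.56, 3.97 and 7.61 FPKM after CTX. All CTX samples lay below all PBS samples, with a log2 fold change of -0.95 (SE 0.25, limma adjusted p = 0.135), whereas that of *Gata6* was -0.16.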
